A study of Drosophila melanogaster with 3 samples.

Results

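The 10 genes described here build the circadian clock of Drosophila melanogaster: the activators Clk and cyc, the repressors per and tim, the feedback transcription factors vri, Pdp1 and cwo, the kinases dco and sgg, and the photoreceptor gene cry. They were taken by name, as 10 of the 13945 protein-coding genes on the 6 chromosome arms that carry reproducible peaks. A peak was assigned to a gene when its summit lay in the gene or within 2 kb of it. This gave 18 of the 5056 reproducible peaks, at 5 of the 10 genes.

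In the fly clock, the bHLH-PAS proteins CLK and CYC bind E-boxes together and switch on per, tim, vri and Pdp1. PER and TIM accumulate, enter the nucleus and block CLK and CYC, while VRI represses and PDP1 activates the Clk gene, and CWO competes at E-boxes. The kinase Doubletime, encoded by dco, phosphorylates PER, the kinase Shaggy, encoded by sgg and the fly form of GSK-3, phosphorylates TIM, and light acting on CRY leads to the loss of TIM. The kinases also serve many other pathways, Shaggy among them in Wingless signalling, and vri and Pdp1 also act in development.

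The measurements are from chromatin immunoprecipitation and sequencing (ChIP-seq) with an anti-GFP antibody, in whole prepupae of both sexes pooled, the stage at which the larval body starts to be remade into the adult. The labels also give an age of 48 days, far beyond the usual age of a prepupa, so the samples are described by stage. All 3 samples came from 1 transgenic line whose stable insertion makes CG4318 with GFP at its C-terminus, and they are labelled biological replicates 1, 2 and 3 of 1 group, with no other genotype, treatment or time of day to compare. Whole animals mix all tissues, so cells that run a clock and cells that do not were measured together. There are 30000 candidate regions in each of the replicate lists and in the pooled one. The reproducible peaks are those that passed the authors' threshold on the irreproducible discovery rate (IDR). Sequencing depth is unknown, because the files hold no read counts. The signal score is the authors' own value for each region, on a scale that is not stated, so it is read only within a list, and ranks (1 is the strongest) are used between lists. Over all reproducible peaks the score ran from 108.7 to 2606 with a median of 193.3.

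The sequences at the summits show what the listed sites look like. Each is a window of the Release 6 reference (dm6) reaching 50 bp to either side of a summit, on the plus strand from 5′ to 3′, and capitals mark every run of 8 or more A or T. The promoter summit and the strongest summit of each gene are shown, since the values below turn on them. The windows are chrX:2646368-2646468 for sgg, chr3R:19211851-19211951 for cry, chr3R:31060399-31060499 and chr3R:31059159-31059259 for dco, chr2L:5299368-5299468 and chr2L:5293337-5293437 for vri, and chr3L:7855846-7855946 and chr3L:7851026-7851126 for Pdp1.
sgg, promoter: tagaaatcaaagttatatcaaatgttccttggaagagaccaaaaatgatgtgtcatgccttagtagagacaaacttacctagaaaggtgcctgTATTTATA
cry, promoter: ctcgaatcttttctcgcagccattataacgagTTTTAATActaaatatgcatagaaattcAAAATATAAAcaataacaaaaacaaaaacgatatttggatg
dco, promoter: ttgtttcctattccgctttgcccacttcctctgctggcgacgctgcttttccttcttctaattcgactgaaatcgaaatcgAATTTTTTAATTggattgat
dco, intron: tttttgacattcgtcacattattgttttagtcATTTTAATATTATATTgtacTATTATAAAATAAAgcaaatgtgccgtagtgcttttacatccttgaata
vri, promoter: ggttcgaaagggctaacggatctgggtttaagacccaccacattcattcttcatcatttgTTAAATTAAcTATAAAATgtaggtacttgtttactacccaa
vri, intron: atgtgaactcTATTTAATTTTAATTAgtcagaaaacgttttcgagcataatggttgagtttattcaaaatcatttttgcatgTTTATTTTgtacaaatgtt
Pdp1, promoter: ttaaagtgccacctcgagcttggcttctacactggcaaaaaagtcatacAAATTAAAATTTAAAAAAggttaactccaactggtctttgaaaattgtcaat
Pdp1, intron: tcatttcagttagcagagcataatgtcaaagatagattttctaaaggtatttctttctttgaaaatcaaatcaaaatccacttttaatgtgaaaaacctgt

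The windows were rich in A and T, as were those of other reproducible peaks. Over the 18 clock gene summits, GC content ran from 16.8% to 40.6% with a median of 29.7%, and the median over all 5056 summits was 30.7%. In 17 of the 18 the GC content was below the mean of the windows 400 bp to either side, the exception being the promoter summit of vri, at 36.6% against 32.2%. The same was found at 91.7% of all reproducible summits, close to the clock genes' 94.4%. A run of at least 8 A or T was found in 16 of 18 windows, or 88.9%, against 83.9% of all reproducible summits. The longest, of 28 bp, was at the first intronic summit of vri, a length reached at 1.29% of all summits. The strongest Pdp1 summit, printed last, had no run longer than 7 bp.

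**Figure D1:**
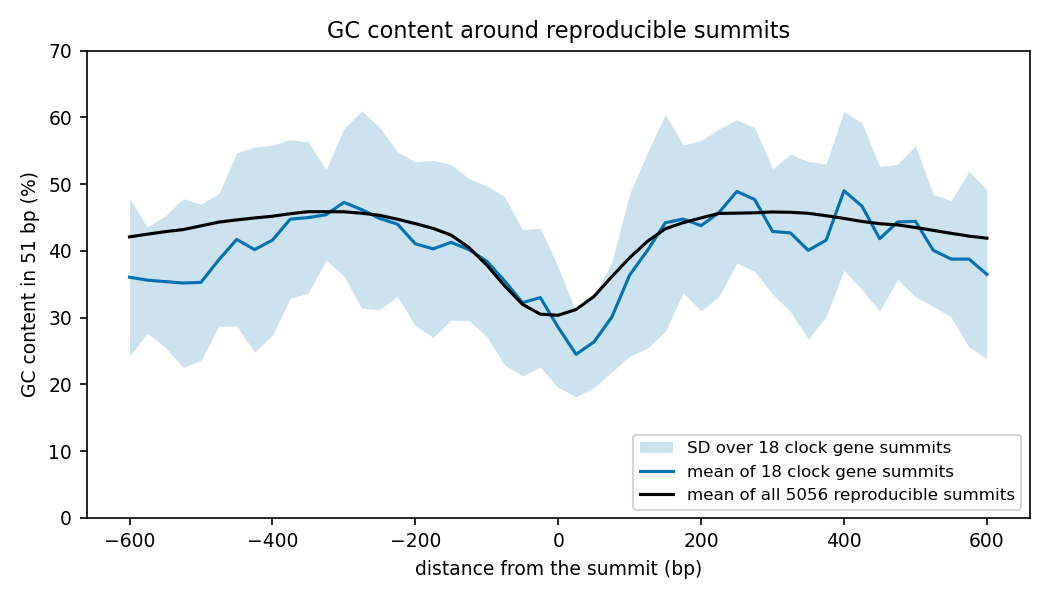
GC content in 51 bp windows (percent, y axis) by distance from the summit (bp, x axis), as the mean over the 18 clock gene summits (blue, band for the SD over summits) and over all 5056 reproducible summits (black). Both lines dip around the summit, where the means are 28.5% and 30.4%, and the line for the clock genes is lowest at 25 bp to its right, at 24.5%.

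The letters that clock factors are known to bind were looked for on both strands of the same windows. CACGTG, the E-box of CLK and CYC, was in 0 of 18 windows and in 0.435% of all reproducible summits. TTATGTAA or TTACGTAA, bound by VRI and PDP1, was also in 0 of 18, against 1.64% of all summits. At such low shares in all summits, no match among 18 windows says only that these letters are not in them. The letters TATAAA, as in a TATA box, were in 7 of 18 windows, or 38.9%, against 25.2% of all summits. They were the windows of cry, of both sgg summits, of the dco intron and of 3 vri summits. Distance from a TSS was not considered, and several of these windows were in introns away from one. A match is therefore not a TATA box in use.

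A reproducible summit was found at 5 of the 10 genes, against 21.8% of all protein-coding genes. The 5 were vri with 7 summits, Pdp1 with 6, dco and sgg with 2 each and cry with 1. The other 5, Clk, cyc, per, tim and cwo, had none. Long genes hold a summit more often, so the background was also taken by gene span. Of the clock genes under 5 kb, cry had a summit and cyc did not, where 14.2% of such genes had one. Of those from 5 to 10 kb, dco did and per did not, against 30.0%. From 10 to 20 kb, 0 of 3 (Clk, tim and cwo) did, against 48.1%, and over 20 kb, 3 of 3 (vri, Pdp1 and sgg) did, against 63.0%. Adding these shares over the members gives 4.22 genes, so the 5 found are close to the background for genes of these spans.

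A promoter summit, within 500 bp of an annotated transcription start site (TSS) of the gene, was found at the same 5 genes, against 9.4% of all protein-coding genes. By the number of start sites, 1 of the 4 clock genes with 1 TSS had a promoter summit, against 5.82%, as did 3 of the 5 with 2 to 4, against 17.7%, and sgg, with 11, where 48.9% of genes with 5 or more do. These shares add up to 1.61 genes over the members. The count depended on the limits: within 250 bp it was 2, vri and sgg, against 6.05% of all genes and 0.959 from the shares by start sites. Among the 2528 strongest peaks it was 3, dco, sgg and cry, against 6.57% and 1.14. No p-value is given, because the genes were chosen with results of these data in view. Of the 18 summits, 5 were at promoters, 12 in introns away from a TSS and 1 downstream of a gene, and 0 were in coding exons.

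**Figure D2:**
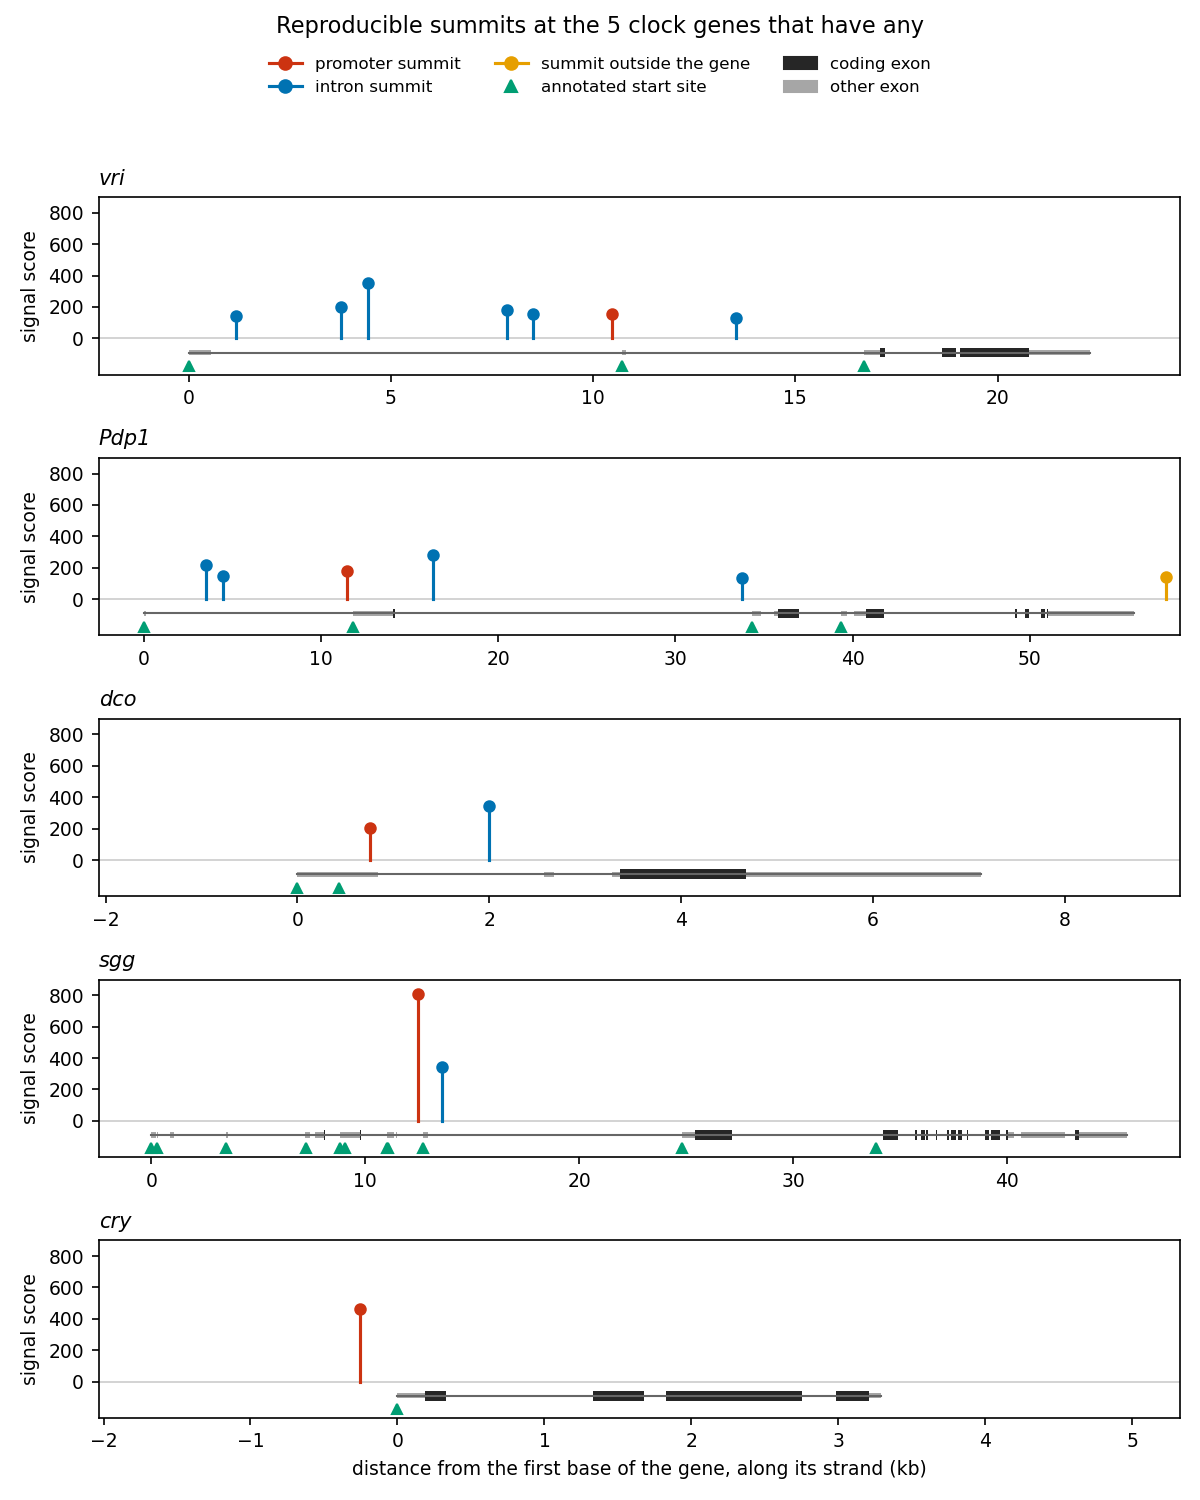
Signal score of each reproducible summit (y axis) by distance from the gene's first base along its strand (kb, x axis) at vri, Pdp1, dco, sgg and cry, with exons (grey, coding parts black) and annotated start sites (green). The highest stem is the sgg promoter summit at 811, and the 7 vri summits all lie upstream of its coding exons.

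The kinase gene sgg (FBgn0003371, X, 2633952 to 2679553, plus strand) held the strongest clock gene peak. Its summit, at 2646418, lay 219 bp upstream of an internal TSS, in an intron of longer transcripts and 12466 bp from the first base of the gene. The signal score was 811, rank 174 of 5056, and the region overlapping it had a score of 309 and rank 193 in replicate 1, a score of 304 and rank 147 in replicate 2, and a score of 185 and rank 201 in replicate 3. The 3 replicates thus placed it among their 201 strongest regions, with summits within 10 bp of the reproducible one. A second summit at 2647535, in an intron 898 bp downstream of the same TSS, had a score of 340.2 and rank 1058, and ranks of 1242, 1191 and 586 in replicates 1, 2 and 3. At 2 summits in over 45 kb, sgg was not dense in peaks: 47.6% of genes over 20 kb held as many.

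Outside the clock, the promoter peaks whose ranks in the 3 replicates came nearest to the sgg promoter peak were those of E(spl)m3-HLH (ranks 195, 182 and 235), a Notch target of the bHLH family, Tsp5D (176, 180 and 175), a tetraspanin, and CG42327 (198, 198 and 164). Their absolute rank differences from sgg, summed over the 3 replicates, were 71, 76 and 93. This likeness is over 3 samples of 1 group and describes peak strength only.

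The other kinase gene, dco (FBgn0002413, 3R, 31054085 to 31061210, minus strand), held a promoter summit and a stronger intronic one. The intronic summit, at 31059209, lay 1564 bp downstream of the nearest TSS in a narrow peak of 127 bp, with a score of 341 and rank 1047. The region there had scores of 114, 126 and 87.7 in replicates 1, 2 and 3, at ranks 1603, 1091 and 825. The promoter summit, at 31060449, lay in the 5′ UTR 324 bp downstream of a TSS, with a score of 206 and rank 2300, and ranks of 2334, 2974 and 1854 in the 3 replicates. All 3 replicates therefore placed the intronic site above the promoter site. Of genes from 5 to 10 kb, 11.8% held 2 or more summits.

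The photoreceptor gene cry (FBgn0025680, 3R, 19212154 to 19215442, plus strand) held a single summit, at 19211901, 253 bp upstream of its only TSS and outside the gene. The score was 465, rank 613. The overlapping region had a score of 198 and rank 591 in replicate 1, a score of 133 and rank 984 in replicate 2, and a score of 121 and rank 482 in replicate 3. It was the second strongest clock gene peak in the reproducible list and in each replicate, after the sgg promoter. No other protein-coding gene had a TSS within 500 bp of it.

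The bZIP repressor gene vri (FBgn0016076, 2L, 5288944 to 5311223, plus strand) held 7 summits within 12377 bp, the densest set among the clock genes at 2.66 per 10 kb of gene and flanks, against 0.378 per 10 kb over the 6 arms. Of genes over 20 kb, 11.2% held as many. All 7 were intronic, upstream of the coding exons and spaced by 650 to 3418 bp. The strongest, at 5293387, lay 4443 bp downstream of the first TSS with a score of 349.7 and rank 992, and its region ranked 674, 1241 and 1506 in replicates 1, 2 and 3 with scores of 185, 117 and 60.3. Its neighbour at 5292722 had a score of 203 and rank 2361. The promoter summit, at 5299418, lay 229 bp upstream of the second TSS, with a score of 155 and rank 3342. It ranked 2844 in replicate 1 and 3848 in replicate 2, and replicate 3 listed no region there. Scores of the other 4 summits ran from 130.4 to 179.9, and the one with 130.4, at 5302489 and rank 4126, was the lowest of all 18.

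Upstream of vri, replicates 1 and 2 also shared a region that the pooled list did not hold. Replicate 1 listed it 1235 bp before the first TSS, with a score of 98.3 and rank 2013, and replicate 2 listed it 1208 bp before, with a score of 77.3 and rank 2452. Replicate 3 listed none there. Of the 5056 strongest regions of replicate 1, 495, or 9.79%, had no overlapping pooled candidate. That share covers regions whether or not replicate 2 also listed them. None was taken for regions that replicates 1 and 2 share.

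Replicate 3 listed no region at 3 of the 7 vri peaks, those with summits at 5290112, 5299418 and 5302489. Replicate 1 gave 6 of the 7 a higher rank than either other replicate did. At the remaining clock genes the order was different, with 8 of 11 peaks ranked highest in replicate 3 and 0 in replicate 1. Of the 5055 reproducible peaks listed in any replicate, 30.8% were ranked highest in replicate 1 and 43.9% in replicate 3. Whether the libraries or the animals differed there was not tested.

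The bZIP activator gene Pdp1 (FBgn0016694, 3L, 7811458 to 7867369, minus strand), the longest of the 10, held 6 summits spread over 54213 bp, or 1.00 per 10 kb. Of genes over 20 kb, 14.1% held 6 or more. The strongest was intronic, at 7851076, 4472 bp downstream of a TSS, with a score of 284 and rank 1440. Its region had scores of 106, 100.6 and 72.5 in replicates 1, 2 and 3, at ranks 1811, 1610 and 1135. The promoter summit, at 7855896, lay 348 bp upstream of that TSS with a score of 179 and rank 2784, and ranked 3357, 1964 and 1832. A pair nearer the start of the gene, at 7863892 and 7862934, had scores of 215.5 and 149.6. The summit at 7833597, with a score of 137, lay 524 bp upstream of another TSS, just beyond the promoter limit.

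The sixth Pdp1 summit, at 7809679 with a score of 144, lay 1779 bp past the end of the gene. It was also inside CG32369, 146 bp downstream of a TSS of that gene, and is the only 1 of the 18 summits at the promoter of another protein-coding gene. Replicate 3 listed no region there, and replicates 1 and 2 ranked it 6916 and 3098.

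**Figure D3:**
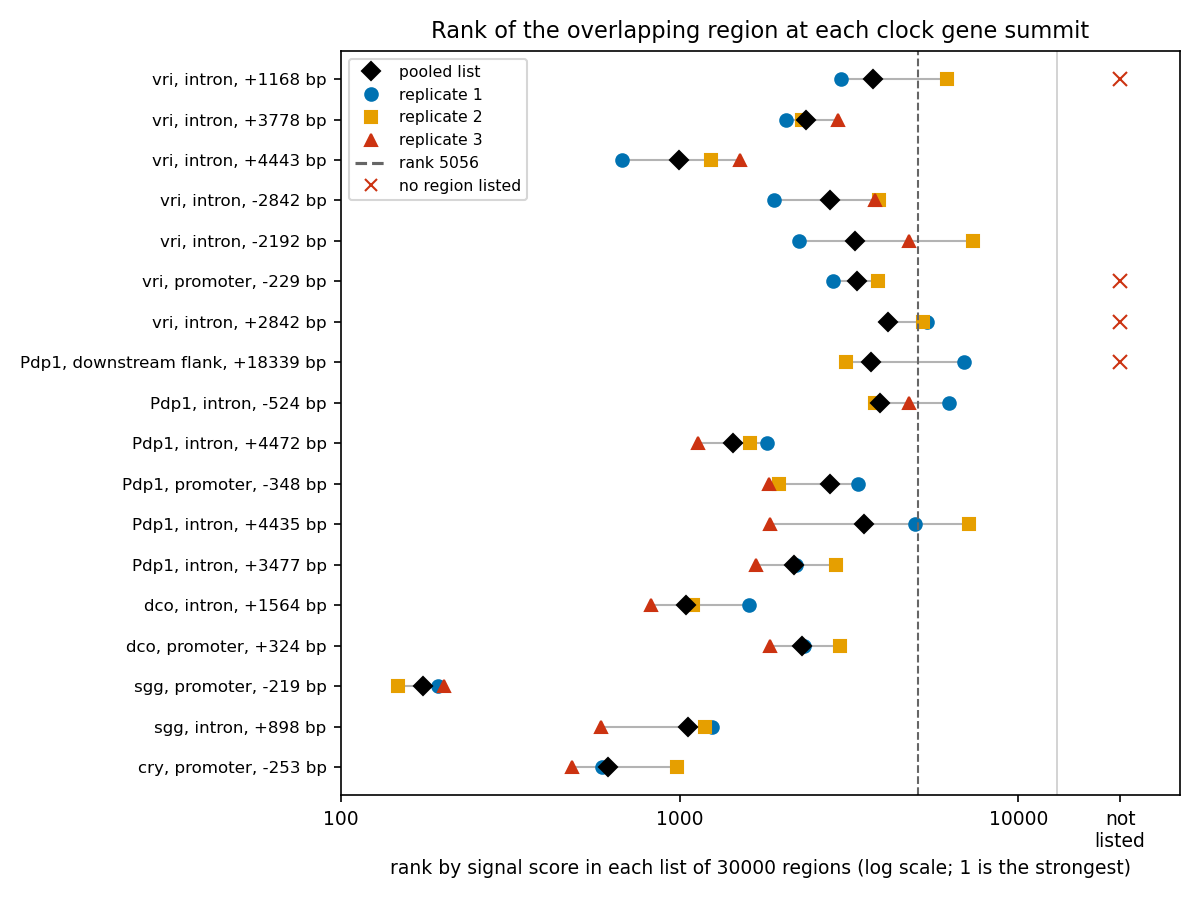
Rank of the strongest overlapping region in the pooled list and in each replicate (x axis, log scale, 1 is the strongest) for the 18 reproducible peaks, named by gene, position and distance from the nearest TSS of that gene. The sgg promoter peak stands furthest left, with ranks from 147 to 201, and 4 peaks have no region in replicate 3. At all 18 the pooled region has the same rank as the reproducible peak, so the pooled marks are not separate support.

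The 3 kinds of gene were then set side by side. The 5 genes of DNA-binding transcription factors held 13 summits, all at vri and Pdp1, with scores from 130.4 to 349.7 and a median of 157. The 2 kinase genes held 4, with scores from 206 to 811 and a median of 341, and cry held 1 at 465. The median rank was 3293 for the factor genes and 1052 for the kinase genes, against 613 for the single cry peak. This order was seen in each of the 3 replicates, at medians of 2844, 1422 and 591 in replicate 1, 3778, 1141 and 984 in replicate 2, and 3779, 705.5 and 482 in replicate 3, with unlisted peaks counted below all ranks. The replicate lists went into the reproducible list, so they are not separate from it. By the strongest peak of each gene the kinds were mixed in the reproducible list. The ranks were 174 for sgg, 613 for cry, 992 for vri, 1047 for dco and 1440 for Pdp1. With 3 replicates a sign-flip test cannot give a p under 0.25, and the peaks come from 2, 2 and 1 genes, so no test was run.

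Among the 2528 strongest reproducible peaks were 4 of the 13 summits at factor genes, 4 of the 4 at kinase genes and the cry summit. Per length the order was another: the factor genes held 1.04 summits per 10 kb of gene and flanks, the kinase genes 0.659 and cry 1.37.

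The 3 replicates gave different support to the 18 peaks. A region was listed in every replicate at 14 of 18, or 77.8%, against 83.2% of all reproducible peaks. Replicates 1 and 2 listed all 18, and replicate 3 missed 4, or 22.2%, against 16.4% of all peaks. All 4 were assigned to factor genes, 3 to vri and 1 to Pdp1. The Pdp1 one was the summit past the end of the gene, at the promoter of CG32369. Regions among the 5056 strongest of every replicate, called the top lists below, were found at 11 of 18, or 61.1%, against 56.6% overall. They comprised 4 of 4 at the kinase genes, the cry peak and 6 of 13 at the factor genes. Where a region was listed, the median shift from the reproducible summit was 16.5, 13.5 and 16 bp in replicates 1, 2 and 3. The largest shifts were 84, 109 and 144 bp, and matching by overlap limits them. At 12 of the 18 every replicate had a summit within 100 bp.

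At the 5 genes with no reproducible summit, weaker candidates gave a range of pictures. Only cyc (FBgn0023094, 3L, 19813770 to 19815938, minus strand) had no region in the pooled list in the gene or within 2 kb, where 51.1% of protein-coding genes had at least 1. Replicate 1 listed a region 12 bp and replicate 2 a region 383 bp downstream of its TSS, at ranks 17990 and 22476, and replicate 3 listed none. A reproducible peak lay just beyond the limit, with its summit 2020 bp from cyc at 19817958, a score of 229 and rank 1996. It was 9 bp from the TSS of the neighbouring gene Fibp.

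The activator gene Clk (FBgn0023076, 3L, 7763233 to 7775603, minus strand) had 3 pooled candidates, the strongest at rank 15278, 570 bp downstream of a TSS. Its best ranks in replicates 1, 2 and 3 were 12519, 8325 and 8417, at 3 different places in the gene. For per (FBgn0003068, X, 2685580 to 2692780, plus strand), the only pooled candidate lay 175 bp upstream of its TSS, at rank 20677. Replicate 1 listed it at rank 14711, and replicates 2 and 3 listed nothing at the gene. The bHLH-Orange repressor gene cwo (FBgn0259938, 3R, 10388258 to 10400752, plus strand) had its strongest pooled candidate in the 5′ UTR, 1091 bp downstream of its TSS, at rank 7723. Its best ranks, 10607 in replicate 1 and 5873 in replicate 2, were at an intronic region, 1309 and 1312 bp downstream of the TSS. The 5′ UTR region ranked 17811 in replicate 1 and 6213 in replicate 2, and replicate 3 listed no region at the gene.

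The repressor gene tim (FBgn0014396, 2L, 3493986 to 3508119, minus strand) differed from these 4, because all 3 replicates listed a strong region near its start that the pooled list did not hold. The summits there lay nearest to an internal TSS, 515 bp downstream of the first base of the gene. In replicate 1 a region with a summit at 3507566, 38 bp downstream of a TSS, had a score of 63.0 and rank 3767. In replicate 2 the summit was at 3507615, 11 bp upstream of a TSS, with a score of 71.1 and rank 2765. In replicate 3 it was at 3507787, 183 bp upstream of a TSS, with a score of 31.4 and rank 3735, and replicate 1 listed a second region with the same summit at rank 4164. These ranks are inside the top list of every replicate. No pooled candidate of any rank overlapped these regions, and the nearest, at rank 17638, ended 186 bp from the nearest of them. Such places were rare: of the 2905 regions of replicate 2 that were in the top lists of all 3 replicates, 24, or 0.826%, had no overlapping pooled candidate. Why the pooled list lacked them was not tested. The strongest pooled candidate of tim lay elsewhere, in an intron 8514 bp downstream of a TSS, at rank 7520, and ranked 11891, 10461 and 3892 in the 3 replicates.

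The reference at this internal TSS of tim, chr2L:3507565-3507665, centred on the summit of replicate 2 and shown for comparison with the listed promoters, had a GC content of 24.8%, lower than at 79.7% of reproducible summits, and held none of the 3 motifs.
tim, promoter: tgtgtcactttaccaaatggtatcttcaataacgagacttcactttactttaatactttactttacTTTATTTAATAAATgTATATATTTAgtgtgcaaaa

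**Figure D4:**
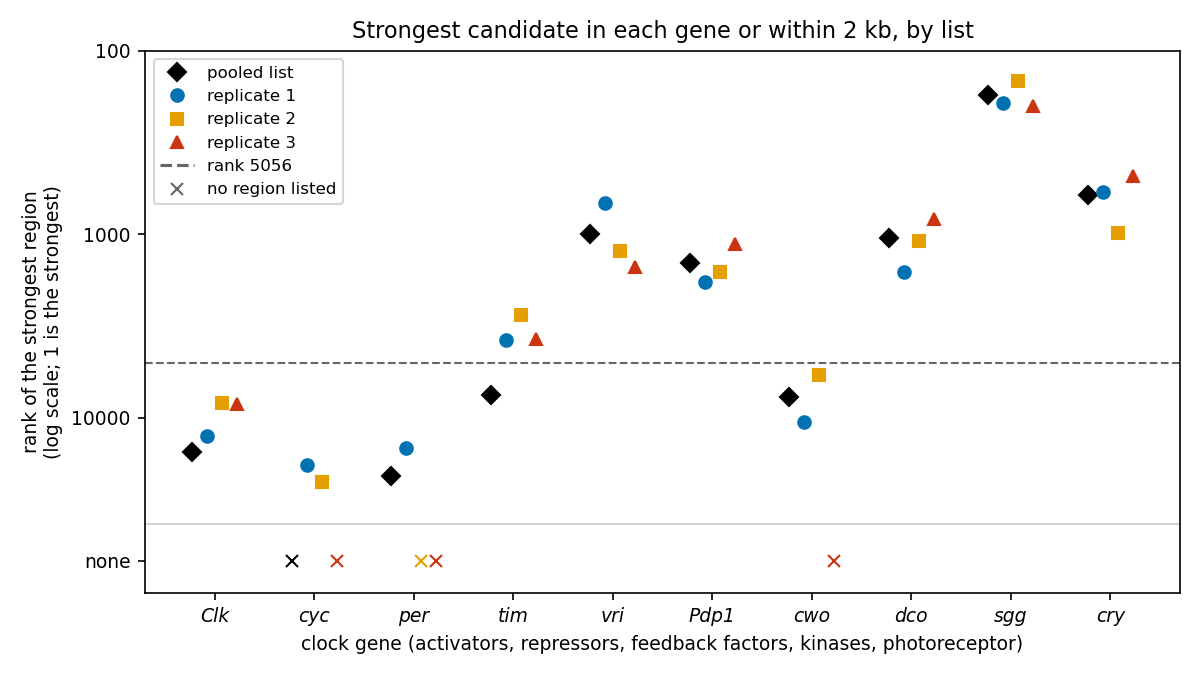
Rank of the strongest region in each of the 10 genes or within 2 kb (y axis, log scale, 1 at the top) in the pooled list and the 3 replicates, with the dashed line at rank 5056. At tim the 3 replicates lie between ranks 2765 and 3767 and the pooled list at 7520, whereas at vri, Pdp1, dco, sgg and cry all 4 lists lie above the line.

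Further genes tied to the fly clock were looked at as a list, chosen like the members with earlier results known. A reproducible summit was found at 14 of 43, or 32.6%, and a promoter summit at 5, or 11.6%, against 21.8% and 9.4% of all protein-coding genes. Adding up the shares for genes of the same span gives 16.6 genes with a summit. For genes with as many start sites they give 6.22 with a promoter summit. Both counts were thus close to this background and a little under it. The counts were 6 of 8 for transcription and chromatin genes, 3 of 5 for light input, 3 of 16 for kinases, phosphatases and protein turnover, 1 of 5 for translation of per and tim, and 1 of 9 for outputs. In the same order, the shares by span add up to 4.07, 2.36, 5.20, 1.21 and 3.76 genes. The transcription and chromatin genes were also the longest, with a median span of 24.9 kb against 11.1 kb for the whole list. The 5 with promoter summits were brm, a Brahma remodeller subunit, at a score of 1078 and rank 66, the nuclear receptor gene Eip75B at 581 and rank 396, qsm, a light input gene, at 357 and rank 954, tws, a phosphatase PP2A subunit that acts on PER, at 148 and rank 3559, and kay, the fly Fos gene, at 114 and rank 4817. Replicate 3 listed no region at the promoter peaks of Eip75B, tws and kay.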

How the data were processed

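ChIP-seq peak lists in dm6 from 3 replicates of 1 group were used; dm3 lists were not used here. Per the labels, a replicate list came from that replicate's alignment, the pooled list from the 3 alignments, and the reproducible list from all 4 lists by IDR thresholding. Names of aligner and peak caller were not given in the sources used here. A control experiment that the labels name was not analysed here. Only 1 value was used, the signal score the authors deposited for each region, on an unstated scale. Regions were ranked by it within a list, and 1-based summits were compared with Ensembl release 115 (BDGP6) genes and the Release 6 sequence, which is dm6. Regions were matched by an overlap of at least 1 bp, keeping the strongest. Window and overlap counts were tested on simulated data. Members, lists and motifs were chosen with earlier results of these data known. Named are the 10 members, other genes with a TSS within 500 bp of a member summit, other clock genes with a promoter summit, and the 3 promoter peaks ranked most like the strongest member peak; cyc's neighbour Fibp and the other gene names were added after their values were seen. Background shares for the other clock genes, the replicate ranks, the flanks and the narrower promoter limits were added after the data were seen. Alternatives covered the gene and promoter windows, the list, the overlap and each replicate's omission. Python 3.11.15, numpy 2.4.6 and pandas 2.3.3 were used.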

Additional observations from a re-analysis of the deposited data

How the results depend on the processing

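Of 25 alternative values for the 5 counts that answer the comparisons, 21 stayed within 1.5 times the reported count. Some of these could not leave that range. The count of peaks listed in all replicates was 14, and omitting a replicate can only raise it, to at most 18. Genes with a summit numbered 4 with no flank and 6 with 5 kb, when cyc was added. In the top list of each single replicate they numbered 6, when tim was added. With all pooled candidates they numbered 9, all but cyc, against 51.1% of all protein-coding genes. That share is not split by gene span, and none was taken for the other flanks or the single top lists. Among the 2528 strongest of the 5056 peaks the clock genes had 9 summits in place of 18, and promoter summits at 3 genes, dco, sgg and cry, in place of 5. With a promoter limit of 250 bp only 2 genes, vri and sgg, had a promoter summit. Without each replicate in turn, 14 to 18 summits were listed in all remaining replicates, the 18 being without replicate 3, and 12 to 13 were in all remaining top lists. The counts by kind of gene were tried under 4 alternatives that were picked with the data already seen. When the 1264 strongest of the 5056 peaks were kept, 1 summit was at factor genes in place of 13, 3 were at kinase genes and 1 at cry. With no flank, cry had 0. No paired analysis was possible because there is 1 group and no test. Depth is unknown, so a site that is not listed cannot be called absent.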

Other observations

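Of the 5056 strongest regions of replicate 2, 496, or 9.81%, had no overlapping pooled candidate, against 186, or 3.68%, in replicate 3.

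Replicate 3's top list also held regions at clock genes that were weaker in the other lists. At Pdp1 a region in a 5′ UTR at 7855430 ranked 2590 in replicate 3, 6438 in replicate 1 and 7517 in the pooled list, with none in replicate 2. At sgg a region at 2653123 ranked 4095 in replicate 3 and 6866, 5117 and 5630 in replicate 1, replicate 2 and the pooled list. Replicate 1 listed a region in a coding exon of sgg, at 2659508, at rank 4815, with pooled rank 5344.

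The strongest reproducible peak of all, with a score of 2606 at the promoter of Ugalt, was also the nearest reproducible summit to per, 11111 bp from the gene.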
